A study of Rattus norvegicus with 17 samples.

Results

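A set of 4 neuronal genes was followed here through RNA-Seq of the whole rat hippocampus: Gad1 (ENSRNOG00000000007), Gad2 (ENSRNOG00000018200), Grin1 (ENSRNOG00000011726) and Pfkp (ENSRNOG00000017163). The last 3 are among the genes that the study's list of cell-type markers assigns to neurons, and Gad1 was added as the partner of Gad2 in GABA synthesis. These 4 genes are among 32494 listed and 22664 tested, the remaining 9830 being at 0 in every library. All 4 had a value in all 17 libraries. The study asked how well 3 laboratories could match their animals and their molecular data, so the question for these genes was whether their RNA levels differed between sites.

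Every rat was a SAS Sprague Dawley male, handled daily, killed by decapitation without anesthesia, and gave 1 library from both hippocampi. No animal was treated, and no group carried an altered gene. The 5 rats of Site #1 and the 6 rats of Site #2 came from Charles River, were 8.3 weeks old on arrival, were housed singly on one chow and were killed 18 to 19 days later, with the dissection done in saline. The 6 rats of Site #3 came from Envigo, were 8 weeks old on arrival, were housed in pairs on another chow and were killed after 27 days, with the dissection done in bubbled artificial cerebrospinal fluid. Vendor, chow, housing, time to sacrifice and dissection buffer all separated Site #3 from Sites #1 and #2 alike, so they cannot be told apart in these data. Site #1 in turn differed from Sites #2 and #3 in having ventilated cages and paper bedding, against stand-alone cages and wood chip. Transit took days to Sites #1 and #3 and hours to Site #2, and cage size and chow vendor differed at every site. These factors cannot be told apart from site either.

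GABA, the main inhibitory transmitter of the forebrain, is made from glutamate by glutamate decarboxylase. Gad1 encodes the GAD67 form, which supplies most of the basal GABA throughout the cell, and Gad2 encodes the GAD65 form, which is concentrated at nerve endings. In the hippocampus both are hallmarks of interneurons. Grin1 encodes GluN1, the subunit that every NMDA-type glutamate receptor needs and that pyramidal cells, granule cells and interneurons all carry. Pfkp encodes the platelet isoform of phosphofructokinase, an enzyme that commits sugar to glycolysis and that is not restricted to neurons.

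The sequences just upstream of the 2 decarboxylase genes are shown because these are the paired genes whose levels were compared library by library. They were read from RefSeq on the GRCr8 build, by gene symbol, whereas the expression values rest on gene models of the older rn6 build. A promoter was found in this way for all 4 genes. Only bases upstream of the outermost annotated start are printed, 5′ to 3′ on the coding strand, with capitals for motif matches: TATAAA (the TATA box) in Gad1 at chr3:75777202-75777259, plus strand, and CCAAT (the CCAAT box) in Gad2 at chr17:89671468-89671717, plus strand.
Gad1: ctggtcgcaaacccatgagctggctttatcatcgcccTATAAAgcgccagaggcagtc
Gad2: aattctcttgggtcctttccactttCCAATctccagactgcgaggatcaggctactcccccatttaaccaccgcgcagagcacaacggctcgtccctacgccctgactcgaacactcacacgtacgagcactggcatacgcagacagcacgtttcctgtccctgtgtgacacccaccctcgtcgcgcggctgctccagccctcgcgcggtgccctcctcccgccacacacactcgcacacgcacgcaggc

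Both strands of the 250 bases before each annotated promoter start were searched for 4 short motifs, and no matches overlapped in these windows. These were TATAAA and CCAAT as above, the GC box with the letters GGGCGG, and the core of the cyclic AMP response element with the letters TGACG. The Gad1 window held TATAAA, which begins 21 bases before the outermost Gad1 start, and 1 GC box that lies downstream of that start. The Gad2 window held only CCAAT. No motif of the 4 was shared by Gad1 and Gad2. Among 33469 rat promoters, TATAAA was present in 12.9%, GGGCGG in 30.5%, TGACG in 18.2% and CCAAT in 34.0%. Both windows were rich in CpG, with 23 CpG in Gad1 and 22 in Gad2 against a median of 5 over all promoters. The Grin1 window held TGACG at 2 positions and 19 CpG. The Pfkp window held GGGCGG at 2 positions, CCAAT at 1 position and 18 CpG. Of these matches, 1 GGGCGG lies upstream of the outermost Pfkp start, and the other GGGCGG and the CCAAT lie downstream of it. The windows of Gad1 and Pfkp reach 192 and 64 bases past their outermost starts, and their CpG counts take in those bases.

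The deposited values are on a log2 scale, so a difference of 1 would be a doubling. Whether they are corrected for gene length is not given in the sources used here, and levels are therefore compared between libraries and not between genes. All 4 genes were abundant on this scale, above 96.1 to 98.6% of the 13679 genes whose mean reached 1 approximate CPM (a gene's share of its library, rebuilt from the log2 values), here called expressed genes. Genes listed as markers of other cells were expressed too, 6 of 6 for microglia, 5 of 5 for astrocytes and the 1 for oligodendrocytes. The median over expressed genes lay between 9.92 and 9.96 in every library. Site #3 replicate 1 stood apart in 17 expressed genes, which were at least 1 log2 unit above all other libraries there, against 0 such genes in each of the other 16 libraries. None of the 4 neuronal genes was among them.

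Gad1, the GAD67 gene, ranged from 13.31 to 13.70 over the 17 libraries, and its site means were nearly level. Its values at Site #1, replicates 1 to 5, were 13.70, 13.48, 13.48, 13.59 and 13.31. Those at Site #2, replicates 1 to 6, were 13.41, 13.50, 13.54, 13.58, 13.55 and 13.61. At Site #3 they were 13.53, 13.52, 13.48, 13.39, 13.44 and 13.42. The means were 13.51 ± 0.15 (SD, n = 5), 13.53 ± 0.07 (n = 6) and 13.46 ± 0.06 (n = 6), and both the highest and the lowest library were from Site #1.

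Gad2, the GAD65 gene, was the most variable of the 4 and was lowest at Site #3. Site #1 gave 13.90, 13.66, 13.48, 13.66 and 13.40. Site #2 gave 13.66, 13.60, 13.52, 13.58, 13.82 and 13.54. Site #3 gave 13.57, 13.42, 13.47, 13.45, 13.52 and 13.48. The means were 13.62 ± 0.19 (SD, n = 5), 13.62 ± 0.11 (n = 6) and 13.48 ± 0.05 (n = 6). The SD within sites was 0.127, larger than that of 88.5% of 522 genes within 0.5 log2 of its level, whose median SD was 0.078. Of the 6 Site #3 libraries 5 were below every Site #2 library, and the sites overlapped through Site #3 replicate 1.

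Grin1, the obligatory NMDA receptor subunit, had the most even site means. Site #1 gave 14.69, 14.63, 14.57, 14.43 and 14.63. Site #2 gave 14.57, 14.64, 14.48, 14.61, 14.55 and 14.52. Site #3 gave 14.53, 14.57, 14.63, 14.52, 14.49 and 14.52. The means were 14.59 ± 0.10 (SD, n = 5), 14.56 ± 0.06 (n = 6) and 14.54 ± 0.05 (n = 6), and the lowest and highest libraries were again both from Site #1.

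Pfkp, the glycolytic enzyme, was the gene with the clearest ordering by site, highest at Site #1. Site #1 gave 13.72, 13.79, 13.88, 13.80 and 13.78. Site #2 gave 13.66, 13.63, 13.65, 13.73, 13.64 and 13.71. Site #3 gave 13.61, 13.77, 13.60, 13.67, 13.58 and 13.64. The means were 13.79 ± 0.06 (SD, n = 5), 13.67 ± 0.04 (n = 6) and 13.65 ± 0.07 (n = 6). At Site #2 5 of 6 libraries and at Site #3 5 of 6 were below every Site #1 library, and the overlap came from Site #1 replicate 1, the lowest of its site, with Site #2 replicate 4 and Site #3 replicate 2. Its SD within sites was 0.0555, with 18.2% of 468 genes of like level having a smaller one, so Gad2 and Pfkp stood at opposite ends of the spread among the 4 genes.

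**Figure D1:**
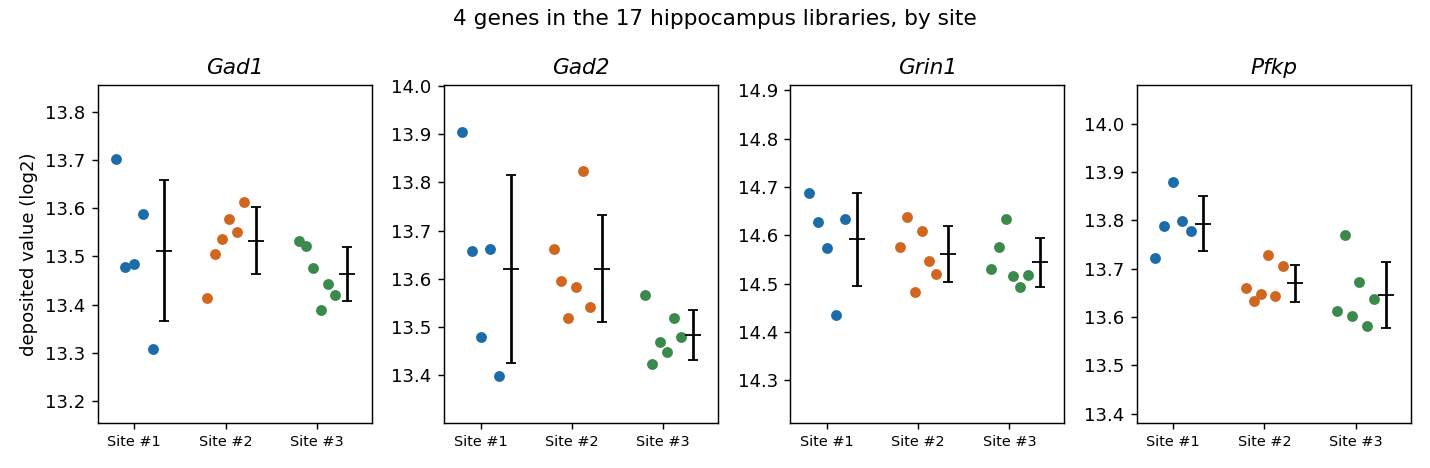
Deposited log2 values of the 4 genes (y axes, all of equal height) in each library, grouped by site (x axis), with points in replicate order and bars for the mean ± SD. Gad2 spreads from 13.40 to 13.90 while Grin1 stays between 14.43 and 14.69, and Pfkp is highest at Site #1.

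None of the 4 genes passed the test between any 2 sites once all 22664 genes were taken into account (limma with Benjamini-Hochberg adjustment, two-sided, adjusted p of 0.195 or more in each of the 12 comparisons). None was called in any alternative either, and in every one of the 12 comparisons the libraries of the sites overlapped. The share of all tested genes called in this way was 0.0% for Site #1 with Site #2, 0.101% for Site #1 with Site #3 and 1.05% for Site #2 with Site #3. In bulk tissue, fewer cells of a type and less RNA per cell cannot be told apart.

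Between Site #1 and Site #2, which shared a vendor, Pfkp differed by -0.12 (log2, second site minus first, SE 0.03, 95% interval -0.20 to -0.05, limma adjusted p = 0.641). The exact two-sided permutation test of this gene alone gave p = 0.00649 over 462 assignments. An unadjusted p under 0.05 was thus reached by 1 of the 4 genes, against 6.74% of all genes tested, and no overlap between these sites was seen for 0 of the 4 against 0.878%. The differences of Gad1 (0.02, 95% interval -0.12 to 0.16), Gad2 (0.00, -0.19 to 0.19) and Grin1 (-0.03, -0.13 to 0.07) were smaller than the spread between libraries.

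Between Site #1 and Site #3, Pfkp differed by -0.15 (SE 0.04, 95% interval -0.23 to -0.06, limma adjusted p = 0.263), with an exact permutation p = 0.00866. Gad2 differed by -0.14 (SE 0.07, 95% interval -0.30 to 0.03, limma adjusted p = 0.715), an interval that takes in 0, and by -0.07 without Site #1 replicate 1. Gad1 and Grin1 each differed by -0.05. Without Site #1 replicate 1 that of Gad1 was -0.0006, and with each library left out that of Grin1 lay between -0.0864 and -0.0229. An unadjusted p under 0.05 was reached by 1 of the 4 genes, against 8.17% of all genes, and 0 of 4 were without overlap, against 1.38%.

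Between Site #2 and Site #3, Gad2 was the gene with the smallest p. It differed by -0.14 (SE 0.05, 95% interval -0.24 to -0.03, limma adjusted p = 0.195), with an exact permutation p = 0.00866 over 924 assignments. Gad1 differed in the same direction by -0.07 (95% interval -0.15 to 0.01, limma adjusted p = 0.423), so the 2 decarboxylase intervals overlapped. Grin1 differed by -0.02 and Pfkp by -0.02. Among the 4 genes 1 had an unadjusted p under 0.05, where 14.8% of all genes had one, and 0 of 4 were without overlap, where 1.95% of all genes were.

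**Figure D2:**
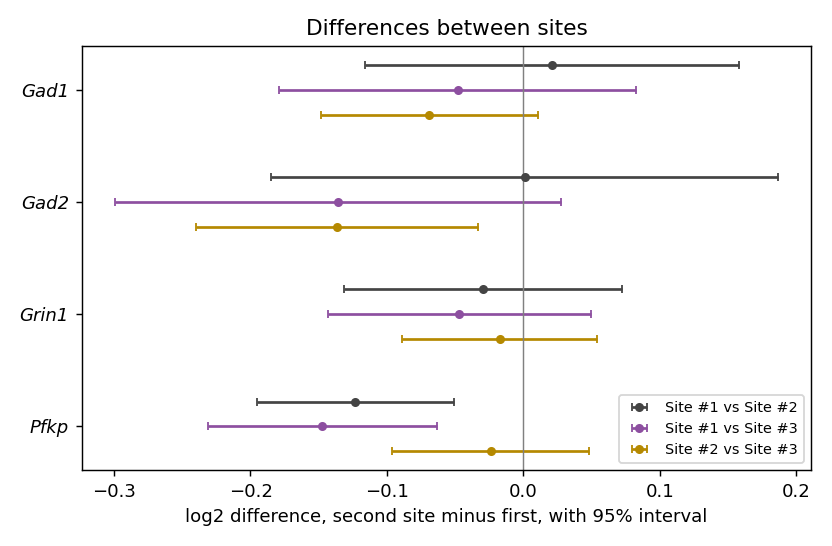
Difference in log2 value between each pair of sites (x axis, second site minus first) for the 4 genes (y axis), as the limma estimate with its 95% interval. The intervals lie wholly below 0 for Pfkp in both comparisons with Site #1 and for Gad2 between Site #2 and Site #3, and no adjusted p was under 0.05.

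Taking all 3 sites at once, the exact permutation test over 5717712 assignments gave p = 0.00183 for Pfkp, unadjusted and for this gene alone. The same exact permutation test gave p = 0.141 for Gad2, p = 0.458 for Gad1 and p = 0.538 for Grin1. Without Site #3 replicate 1, the Pfkp value was p = 0.00357 by the same exact permutation test. In order of site means, Pfkp was highest at Site #1, and its levels at Site #2 and Site #3 did not differ beyond their spread.

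The 2 decarboxylase genes rose and fell together over the 17 libraries, but the relation rested on 2 of them. Pearson's r between Gad1 and Gad2 was 0.643 (permutation p = 0.00552, 100000 resamples, two-sided) and Spearman's rho was 0.559 (permutation p = 0.0219). Site #1 replicate 1 was the highest library for both genes, at 13.70 and 13.90, and Site #1 replicate 5 was the lowest for both, at 13.31 and 13.40. Without these 2, the libraries farthest from the median of Gad1, r was 0.320 (permutation p = 0.247, 15 libraries), and without Site #1 replicate 1 alone it was 0.459 (permutation p = 0.0735). These permutations shuffled values over all libraries used, so differences between sites and the wider spread at Site #1 enter their p-values. The relation of Gad1 with Gad2 was the only one between members that was tested, so no adjustment over several was made.

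Within sites the relation was not detected at Site #2 or Site #3, and its value at Site #1 was not separate from the 2 extreme libraries. At Site #1, which holds both extreme libraries, r was 0.920 (exact permutation p = 0.0417) and rho was 0.900 (exact permutation p = 0.0833) over 5 libraries, fewer than the 6 otherwise required for an r. The r was -0.230 at Site #2 (rho -0.371, exact permutation p = 0.610 for r) and 0.283 at Site #3 (rho 0.257, exact permutation p = 0.585 for r), each over 6 libraries. With site means removed, r was 0.594 (permutation p = 0.0139) and rho was 0.319 (permutation p = 0.213). That permutation shuffled values over all 17 libraries and not within sites. The SD at Sites #1, #2 and #3 was 0.15, 0.07 and 0.06 for Gad1 and 0.19, 0.11 and 0.05 for Gad2. These 2 p-values therefore do not test the relation within sites. Among the 13678 other expressed genes, Gad2 held rank 40 by r with Gad1, while Gad1 held rank 338 by r with Gad2. The difference Gad2 minus Gad1 had means of 0.11 ± 0.08 (SD, n = 5), 0.09 ± 0.14 (n = 6) and 0.02 ± 0.06 (n = 6) at Sites #1, #2 and #3, so the ratio of the 2 transcripts was widest in spread at Site #2.

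**Figure D3:**
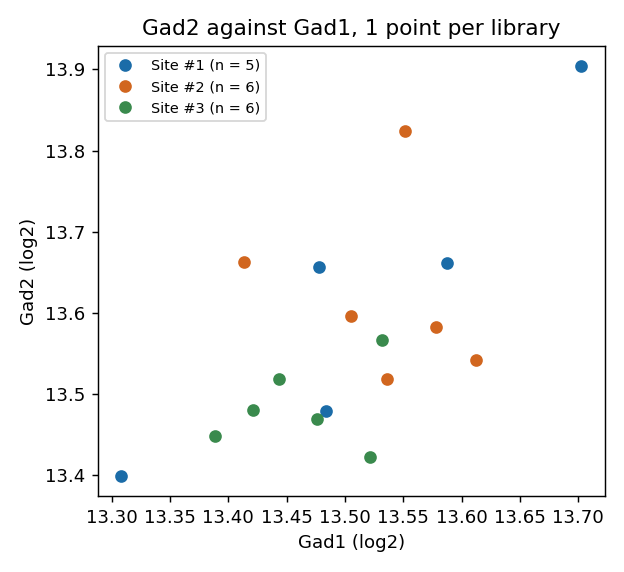
Gad2 against Gad1 (both deposited log2 values), 1 point per library, coloured by site. The points at the 2 extremes, 13.31 and 13.70 on the Gad1 axis, are both Site #1 libraries, and without them r goes from 0.643 to 0.320.

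The other pairs of the 4 genes are given as r over the same 17 libraries, without a test. Grin1 had r of 0.03 with Gad1, 0.22 with Gad2 and 0.14 with Pfkp. Gad1 and Pfkp had r of 0.08. Gad2 and Pfkp had r of -0.04, which became -0.50 with site means removed. The r of 0.64 between Gad1 and Gad2 was thus the highest of the 6 pairs. Libraries of one site and the shared scaling enter every one of these values.

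The balance of inhibitory and excitatory genes was taken per library as the mean log2 value of Gad1 and Gad2 minus that of Grin1. Interneurons carry Grin1 as well, so the score sets genes against each other and does not measure a ratio of cell classes. Its zero has no meaning, since it is not known whether values are per length, and only differences between libraries can be read. The values at Site #1 were -0.89, -1.06, -1.09, -0.81 and -1.28. Those at Site #2 were -1.04, -1.09, -0.95, -1.03, -0.86 and -0.94. Site #3 gave -0.98, -1.10, -1.16, -1.10, -1.01 and -1.07.

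The means of the balance were -1.03 ± 0.18 (SD, n = 5), -0.98 ± 0.08 (n = 6) and -1.07 ± 0.07 (n = 6). Site #2 minus Site #1 was 0.0404, Site #3 minus Site #1 was -0.0449 and Site #3 minus Site #2 was -0.0854. The last was about as large as the SD at either of its sites, the libraries of all sites overlapped, and no test was made of this score. Site #1 held both the lowest and the highest library, replicate 5 with low Gad1 and Gad2 and replicate 4 with low Grin1. When Grin2a and Grin2b, regulatory NMDA receptor subunits, were averaged with Grin1, the means were 0.97 ± 0.16, 1.04 ± 0.22 and 0.86 ± 0.13, also with overlap between all sites.

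**Figure D4:**
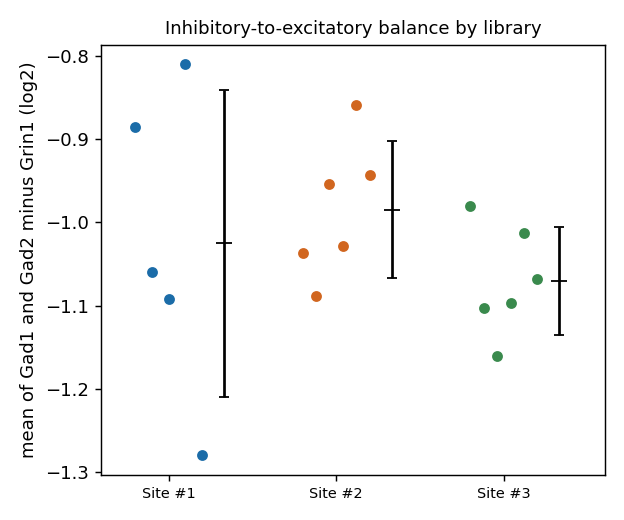
Mean log2 value of Gad1 and Gad2 minus Grin1 (y axis) in each library, by site (x axis), with points in replicate order and bars for the mean ± SD. The site means lie between -1.07 and -0.98, and Site #1 spans -1.28 to -0.81.

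Other genes of the inhibitory and excitatory synapse were looked up in lists of pathway genes, and those that could be named were few. Symbols were available for 1434 of the 22664 tested genes, mainly from the study's tables of differentially methylated genes, so the named genes are a selection. Of 41 genes of the GABA synapse and of interneurons, 7 were identified, and 0 were called in any pair of sites (limma, adjusted p of 0.352 or more). An unadjusted p under 0.05 was reached by 0 of the 7 in each pair. The median of the list was -0.03, -0.03 and 0.02 in the 3 pairs, against medians over all genes tested of -0.0001014, 0.0002041 and 0.0001483.

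Of 38 genes of the glutamate synapse and of principal cells, 12 were identified and 0 were called. Their median difference was -0.07 from Site #1 to Site #2, 0.006 from Site #1 to Site #3 and 0.08 from Site #2 to Site #3. From Site #1 to Site #2, 2 of the 12 were lower and 0 higher at an unadjusted p under 0.05, against 728 lower and 799 higher of all 22664 genes. From Site #1 to Site #3, 0 of the 12 were lower and 0 higher, against 999 lower and 852 higher of all genes. From Site #2 to Site #3, 4 of the 12 were higher and 1 was lower, against 1640 higher and 1712 lower of all genes. Shank1, a scaffold of the postsynaptic density, differed by 0.29 (limma adjusted p = 0.151), and Neurod6, a transcription factor of pyramidal neurons, by -0.20 (limma adjusted p = 0.193).

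Of 26 pan-neuronal genes, 9 were identified and 1 was called between Site #2 and Site #3, where 1.05% of all genes were called and 1.95% were without overlap. Prrt2, a presynaptic protein that regulates transmitter release, fell by 0.17 on the log2 scale from Site #2 to Site #3 (limma adjusted p = 0.0219), with no overlap between these sites. Its means were 12.90 ± 0.11 (SD, n = 5), 12.94 ± 0.03 (n = 6) and 12.77 ± 0.06 (n = 6) at Sites #1, #2 and #3, and the lowest Site #2 library, at 12.91, was above the highest Site #3 library, at 12.88. It was called in 14 of 20 settings for this pair. Its adjusted p was 0.0783 with the replicate block, 0.0515 with all libraries in one fit, and between 0.0508 and 0.0549 without Site #2 replicate 3 or without Site #3 replicate 2, 5 or 6. For the remaining 8, among them Rbfox3 (NeuN, a nuclear marker of mature neurons), no adjusted p was under 0.05. Of 21 glycolysis genes 5 were identified, of which only 2 were expressed genes, and 0 were called. Pfkl, the liver isoform of phosphofructokinase, differed from Site #1 by -0.14 at Site #2 (limma adjusted p = 0.725) and by 0.02 at Site #3 (limma adjusted p = 0.921).

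Markers of other cell types were set beside these values. The summed level of the 6 microglial markers ranged from 176 to 215 CPM at Site #1, 163 to 205 at Site #2 and 205 to 218 at Site #3. C1qa, a complement gene of microglia, was higher at Site #3 than at Site #2 by 0.27 without overlap (limma adjusted p = 0.0618), and Csf1r, the receptor that microglia need to survive, by 0.20 with overlap (limma adjusted p = 0.0550). Each was called in 3 of 20 settings. Of the 6 microglial markers, 5 had a positive difference from Site #2 to Site #3, and P2ry13 had one of -0.006. Over all 22664 genes tested, 11447 were positive in this pair. Over the 17 libraries the r of Gad2 with these 6 genes ran from -0.73 (C1qa) to 0.15 (P2ry13). The median was -0.44, against -0.01 over all expressed genes, and 1 of the 6 was positive, against 6759 of 13678. With site means removed the r was -0.72 for C1qa, -0.39 for Tmem119, -0.33 for Selplg and -0.32 for Pycard. For Csf1r it went from -0.28 to -0.04, and for P2ry13 from 0.15 to 0.21. The 5 genes listed as astrocyte markers summed to 2267 to 2515, 2076 to 2363 and 2265 to 2580 CPM at the 3 sites. From Site #2 to Site #3 all 5 of these had a positive difference, and 0 were called. An unadjusted limma p under 0.05 was reached by 2 of them, Gfap (0.16) and Gja1 (0.10), where 14.8% of all genes reached one. The oligodendrocyte marker Cers2 was at 56.4 to 67.5, 58.6 to 70.7 and 59.5 to 69.3 CPM. Whether these markers have a part in the levels of Gad2 or Pfkp was not tested.

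Genes whose levels resembled each of the 4 were found by Pearson's r over the 17 libraries, among 952 expressed genes with a symbol. They were picked for a high r in that search, so their r is high by selection. The r within a site comes from part of the same libraries and is no separate check, and none was tested. Grin1 had r of 0.83 with Cacng8, an auxiliary subunit of AMPA-type glutamate receptors, which held rank 11 of all 13678 genes. This r was 0.78 within Site #2 and 0.82 within Site #3, over 6 libraries each. Lrrn2 was also at 0.83, with 0.92 within Site #2 and 0.66 within Site #3. The median r of Grin1 was 0.43 with the 9 pan-neuronal genes and 0.25 with the 12 glutamate genes, against 0.01 over all genes. Both lists were mixed. The r ran from -0.49 (Doc2a) to 0.75 (Svop) with the pan-neuronal genes, 7 of 9 being positive. With the glutamate genes it ran from -0.55 (Cacng4) to 0.83 (Cacng8), 10 of 12 being positive, against 6943 of 13678 over all genes.

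Gad2 resembled Tmem184c (r of 0.79) and Ugcg (0.76). The r with Tmem184c was 0.79 within Site #2 and 0.27 within Site #3, and that with Ugcg was 0.86 and 0.15. All 6 expressed genes of the GABA list had a positive r with Gad2, with a median of 0.43, against 6759 of 13678 positive and a median of -0.01 over all genes. The count was 7 of 9 for the pan-neuronal genes (median 0.29) and 4 of 4 for genes used by most cells, such as Rac1 and Actr3 (median 0.23). Kcnc1, a potassium channel of fast-spiking interneurons, stood at 0.65, and Gabrr2, a GABA receptor subunit, went from 0.31 to 0.01 without Site #1 replicate 1. For Gad1 the median over the same 6 genes was 0.27, and the most similar genes were Rfk (0.71), Tle4 (0.68) and Rpl7l1 (0.68). The r with Rfk was 0.36 within Site #2 and 0.38 within Site #3, and 0.56 without Site #1 replicate 1. For Tle4 it was 0.41 and 0.73 within these sites, and for Rpl7l1 0.54 and 0.56.

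Pfkp, although listed as a neuronal marker, was, among genes with a symbol, most like Aldh1l1, a folate enzyme widely used to mark astrocytes, with r of 0.83 and rank 3 of 13678 genes. This r was 0.61 with site means removed, 0.74 within Site #2 and 0.85 within Site #3. Aldh1l1 had means of 10.15 ± 0.11 (SD, n = 5), 9.96 ± 0.07 (n = 6) and 9.97 ± 0.07 (n = 6) and so, like Pfkp, was highest at Site #1, with differences from it of -0.19 and -0.18 (limma adjusted p = 0.641 and 0.285). The other genes listed as astrocyte markers had a lower r with Pfkp: -0.23 for Gfap, -0.44 for Gja1, 0.15 for Slc1a3 and 0.36 for Pdgfrb. The median r of Pfkp was -0.06 with the 9 pan-neuronal genes and -0.06 with the 12 glutamate genes. After Aldh1l1 came Rita1 (0.78) and Etv4 (0.76). With site means removed these were 0.63 and 0.44. Within Site #2 they were 0.63 and 0.28, and within Site #3 0.52 and 0.80.

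**Figure D5:**
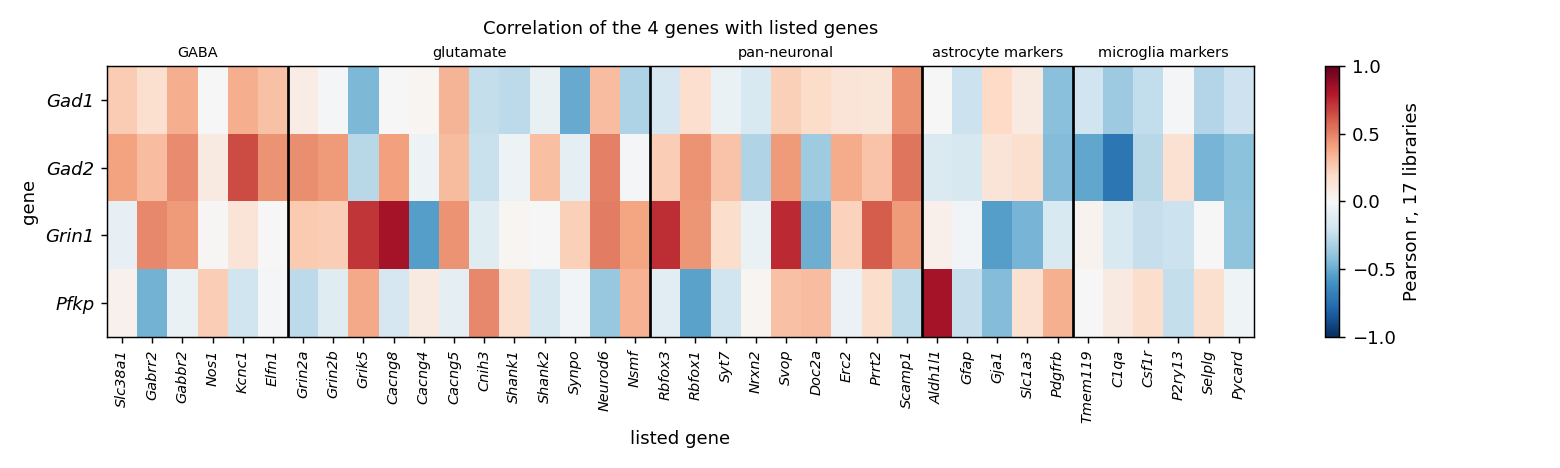
Pearson's r over the 17 libraries (colour) between each of the 4 genes (y axis) and the expressed listed genes (x axis), grouped as GABA, glutamate, pan-neuronal, astrocyte and microglial. The darkest positive cells are Grin1 with Cacng8 (0.83) and Pfkp with Aldh1l1 (0.83), and the strongest negative one is Gad2 with C1qa (-0.73).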

How the data were processed

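RNA-Seq was made from whole hippocampi of 17 rats. Per the study's methods, the authors cleaned reads with Trimmomatic, mapped them to rn6 with HISAT2 and assigned them to genes with featureCounts. The deposited files hold 1 log2 value per gene and library, between -2.28 and 20.22; how the authors normalized them is not given in the sources used here. Their low values vary little (median SD 0.00267 for genes with a mean below 0, 0.0936 for genes expressed at a mean of 1 approximate CPM or more), so low genes are compressed. The depth of each library is not known from these values, and read counts were not used here.

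Samples were grouped by the site in their labels. Each pair of sites was fitted over 22664 genes with limma 3.58.1 in R 4.3.3 (trend, Benjamini-Hochberg, threshold 0.05). Exact permutation tests and correlations used Python 3.11.15 and scipy 1.17.1, and the scripts were tested on simulated data. Approximate CPM is 2 to the power of the value, scaled to equal sums. P-values of the tests between sites measure the spread between rats within sites, with 1 laboratory per site. Those of r and rho over several sites also take in differences between sites.

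Gene symbols came from the study's tables (1796 identifiers). The text names the 4 genes, listed genes called or without overlap or needed to describe a list, and up to 3 genes with the highest r with each. A further gene of the set, and some listed or similar genes, are not reported here, and the lists, counts and balance leave them out. The members and lists were chosen with earlier results of these data known. The alternatives were another fit, filter, weighting or scaling, and leaving out each library.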

Additional observations from a re-analysis of the deposited data

How the results depend on the processing

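Of 220 recomputed differences of the 4 genes between sites, 213 kept their direction and 7 changed sign, all between Site #1 and Site #2 and for Gad1 or Gad2, where the differences were near 0. None was called under any alternative. Between these 2 sites Gad1 ranged from -0.0302 (without Site #1 replicate 5) to 0.0685 as each library was left out, and Gad2 from -0.0544 to 0.0716. Between Site #1 and Site #3 Gad1 ranged from -0.0993 (without Site #1 replicate 5) to -0.0006 (without Site #1 replicate 1), Gad2 from -0.1911 to -0.0651 without the same libraries, and Grin1 from -0.0864 (without Site #1 replicate 4) to -0.0229 (without Site #1 replicate 1). Between Site #1 and Site #2 Gad2 was -0.0044 with array weights and -0.0048 with quantile normalization. The r of Gad1 with Gad2 was 0.470 (permutation p = 0.0576) with quantile normalization and 0.320 without the 2 libraries farthest from the median of Gad1. With each library left out in turn, r went from 0.459 (without Site #1 replicate 1) to 0.717 (without Site #2 replicate 1). Among these, the permutation p of r was above 0.05 only without Site #1 replicate 1. The permutation p of rho was above 0.05 without Site #1 replicate 1 (0.0676), Site #1 replicate 5 (0.0665) or Site #3 replicate 4 (0.0546). The difference in balance ranged, with each library left out, from -0.0232 to 0.0943 between Site #1 and Site #2, from -0.1086 to 0.0089 between Site #1 and Site #3 and from -0.1061 to -0.0601 between Site #2 and Site #3.

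Counts over all genes depended more on the setting. With the replicate number as a replicate block, 0, 0 and 43 genes were called in the 3 pairs in place of 0, 23 and 239. The numbers name different rats. The r between deviations of same-numbered libraries had means of -0.0034, -0.171 and 0.0299 in the 3 pairs. Single values ran from -0.459 to 0.390, from -0.334 to -0.0247 and from -0.428 to 0.198. Between Site #1 and Site #3, 36 were called with all libraries in one fit and 9 to 30 with a library left out. Between Site #2 and Site #3, 482 were called among expressed genes alone, and 81 (without Site #3 replicate 6) to 333 with a library left out. The cause was not tested.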
